A study of Solanum lycopersicum with 8 samples.

Results

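The JAZ and TIFY repressors of jasmonate signalling described here are 4 tomato genes, JAZ2, SLJAZ3, LOC101252907 and LOC101252609, each with 1 transcript in a count table of 45845 RefSeq transcripts of 29081 genes. They were picked by symbol out of 16 genes whose symbol or description names JAZ, a jasmonate ZIM domain or TIFY. They were picked for counts that were lower under tunicamycin than in control leaves, so their values in those comparisons are a description and carry no test. The libraries are total RNA of leaves of tomato (Solanum lycopersicum), in 4 groups of 2 biological replicates each: leaves at 6 h of tunicamycin, control leaves at 6 h, leaves at 2 h of tunicamycin and control leaves at 2 h. Tunicamycin is an antibiotic that blocks the first step of N-linked protein glycosylation and so causes stress in the endoplasmic reticulum (ER). The sources used here do not give the cultivar, the plants' age, the dose, the way of treatment or what the control leaves received. They do not say whether replicates came from separate plants, so p-values measure only the spread between these libraries.

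Jasmonate is the lipid-derived hormone with which plants answer wounding, insects and some pathogens. JAZ proteins, which carry a TIFY motif, hold transcription factors such as MYC2 inactive, with the help of the adaptor NINJA and the corepressor TOPLESS. The active hormone, jasmonoyl-isoleucine, joins JAZ proteins to the receptor COI1, an F-box protein, which leads to their degradation, and JAZ genes are themselves transcribed when the pathway is on. In Arabidopsis, TIFY 5A is another name of JAZ8, a repressor that binds TOPLESS by itself and resists degradation, while TIFY 10A and 10B are JAZ1 and JAZ2 and TIFY 6B is JAZ3.

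Library totals ran from 4689769 to 122784850 counts, and within a group the deeper library exceeded the shallower by a factor of 5.49 to 9.98. The deeper library was replicate 1 in both tunicamycin groups and replicate 2 in both control groups. Levels are given as CPM, reads as a fixed fraction of a library total that was scaled by TMM (trimmed mean of M values), and they compare libraries for 1 gene, not genes with each other, since transcript lengths were not used. The defining genes of leaf tissue were abundant, and the 22 genes of Rubisco small subunits and chlorophyll-binding proteins summed to between 21800 and 46400 CPM in the 8 libraries. Of the 8 tested genes of ER folding (BiP, endoplasmin, calnexin and calreticulin) 0 passed edgeR's quasi-likelihood test at 6 h or at 2 h, with 0 at an unadjusted p under 0.05 and 0 in DESeq2 or limma-voom. BiP/grp78, which binds unfolded proteins in the ER, averaged 54.0 ± 7.36 CPM in tunicamycin and 45.5 ± 29.2 CPM in control leaves at 6 h, and 35.5 ± 1.65 CPM in tunicamycin and 58.8 ± 1.15 CPM in control leaves at 2 h (SD, n = 2 each). Of the 8 genes, 2 had a log2 fold change below 0 at 6 h (median 0.11) and 7 at 2 h (median -0.36).

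All 4 genes stood far lower at 6 h of tunicamycin than in the control leaves of that time. JAZ2, a repressor of the JAZ family, had 6.74 and 5.60 CPM in tunicamycin leaves, against 41.4 and 52.5 CPM in control leaves. Both tunicamycin libraries lay well under both control libraries, and the replicates of each group lay close together. The log2 fold change of JAZ2, fitted in edgeR, was -2.92 ± 0.38 (SE, n = 2 each).

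SLJAZ3, a jasmonate ZIM-domain protein and the member with the most reads, had 20.3 and 28.8 CPM in tunicamycin leaves at 6 h, against 133 and 106 CPM in control leaves. Its groups did not overlap either. The log2 fold change was -2.29 ± 0.41 (SE), the smallest of the 4. In bulk leaf RNA, fewer cells of a type that use a gene and less of its RNA in each cell cannot be told apart, for this and for every other gene named here.

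The TIFY 5A-like genes stood lowest relative to control. LOC101252907 had 0.392 and 1.64 CPM in tunicamycin leaves at 6 h, against 11.9 and 18.9 CPM in control leaves. The deeper tunicamycin library held 40 of its reads and the shallower 24. Its log2 fold change was -4.17 ± 0.60 (SE).

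LOC101252609 had 0.0392 and 0 CPM in tunicamycin leaves at 6 h, against 2.01 and 4.83 CPM in control leaves. These were 4 and 0 reads in the tunicamycin libraries, against 40 and 611 in the control libraries, and a count of 0 in the shallower tunicamycin library allows up to 0.205 CPM, the level of 3 reads there. Summed over the libraries of each group and scaled by their size, 4 tunicamycin reads against 651 control reads put the gene 130-fold lower in tunicamycin leaves, with an exact 95% binomial interval from 50.4-fold to 478-fold that covers counting error only. The fitted log2 fold change was -6.64 ± 1.10 (SE), and with so few reads its size depends on the small count that edgeR adds.

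**Figure D1:**
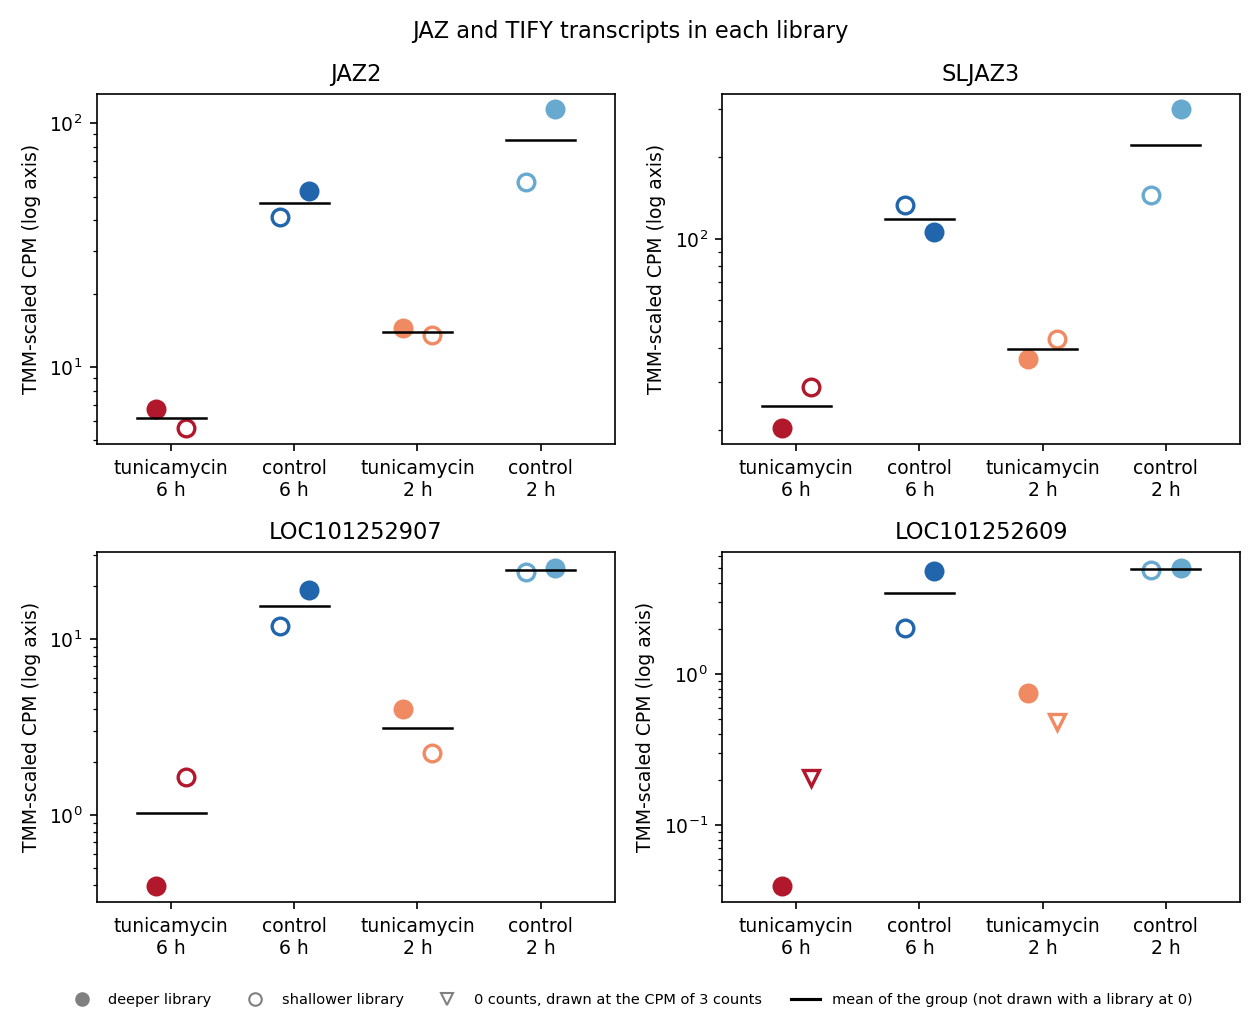
TMM-scaled CPM (log axis) of the 4 genes in each of the 8 libraries, with filled symbols for the deeper and open symbols for the shallower library of a group, bars for the means of groups with no library at 0, and triangles for libraries with 0 counts, drawn at the CPM that 3 counts would give. In each panel both tunicamycin libraries lie under both control libraries of the same time, as with JAZ2 at 6 h (6.74 and 5.60 against 41.4 and 52.5 CPM).

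At 2 h the same genes were already low in tunicamycin leaves. JAZ2 had 14.4 and 13.5 CPM there, against 57.4 and 114 CPM in control leaves. The tunicamycin libraries agreed within 1 CPM of each other, whereas the control libraries lay far apart, with the deeper one the higher. The log2 fold change was -2.62 ± 0.37 (SE, n = 2 each).

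SLJAZ3 had 36.3 and 43.1 CPM in tunicamycin leaves at 2 h, against 145 and 299 CPM in control leaves, a log2 fold change of -2.49 ± 0.41 (SE). As with JAZ2, the spread was in the control leaves, where the deeper library was the higher one. LOC101252907 had 4 and 2.25 CPM in tunicamycin leaves, against 24.0 and 25.5 CPM in control leaves, a log2 fold change of -2.91 ± 0.55 (SE). Here the control libraries lay close together.

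LOC101252609 had 0.747 and 0 CPM in tunicamycin leaves at 2 h, against 4.88 and 5.07 CPM in control leaves. The 0 came from the shallower tunicamycin library, in which it allows up to 0.482 CPM. With 34 tunicamycin reads against 264 control reads, the gene was 7.69-fold lower in tunicamycin leaves by summed counts (exact 95% binomial interval from 5.36-fold to 11.3-fold, counting error only), and the fitted log2 fold change was -3.29 ± 0.87 (SE). The tunicamycin effect at 6 h minus that at 2 h came to -3.35 ± 1.34 on the log2 scale for LOC101252609, -1.26 ± 0.76 for LOC101252907, -0.30 ± 0.50 for JAZ2 and 0.20 ± 0.55 for SLJAZ3 (SE), given without a test since both effects chose the members.

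Both tunicamycin libraries lay below both control libraries for 4 of 4 genes at 6 h and 4 of 4 at 2 h. Over all 34483 transcripts tested, 12.5% did so at 6 h, 18.8% at 2 h and 4.56% at both times. With edgeR's quasi-likelihood test and an adjusted p under 0.05 over all transcripts, 4 of the 4 were called lower at 6 h, where 0.302% of all transcripts were, and 1 of the 4, JAZ2, at 2 h, where 0.0435% were. None of the 4 was called higher, where 0.0203% of all transcripts were at 6 h and 0.0029% at 2 h. The median log2 fold change of the 4 was -3.54 at 6 h and -2.77 at 2 h, beside 0.03 at each time over all transcripts. These counts are a description, because the same comparisons chose the genes.

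Since each group paired 1 deeper with 1 shallower library, the differences were also taken within a depth. Between the deeper libraries at 6 h they were -2.95 for JAZ2, -2.38 for SLJAZ3, -5.44 for LOC101252907 and -5.88 for LOC101252609 on the log2 CPM scale with a prior count of 2. Between the shallower libraries they were -2.88, -2.20, -2.83 and -5.56 in the same order of genes. At 6 h JAZ2 and SLJAZ3 thus gave nearly the same difference at either depth, while LOC101252907 did not. At 2 h the deeper libraries gave -2.99 for JAZ2, -3.04 for SLJAZ3, -2.66 for LOC101252907 and -2.69 for LOC101252609. The shallower gave -2.08, -1.75, -3.39 and -6.82, the last of which sets a library with 0 reads against one with 24. At 2 h JAZ2 and SLJAZ3 thus stood further below control in the deeper libraries than in the shallower. All these differences belong to the comparisons that chose the genes and are a description.

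**Figure D2:**
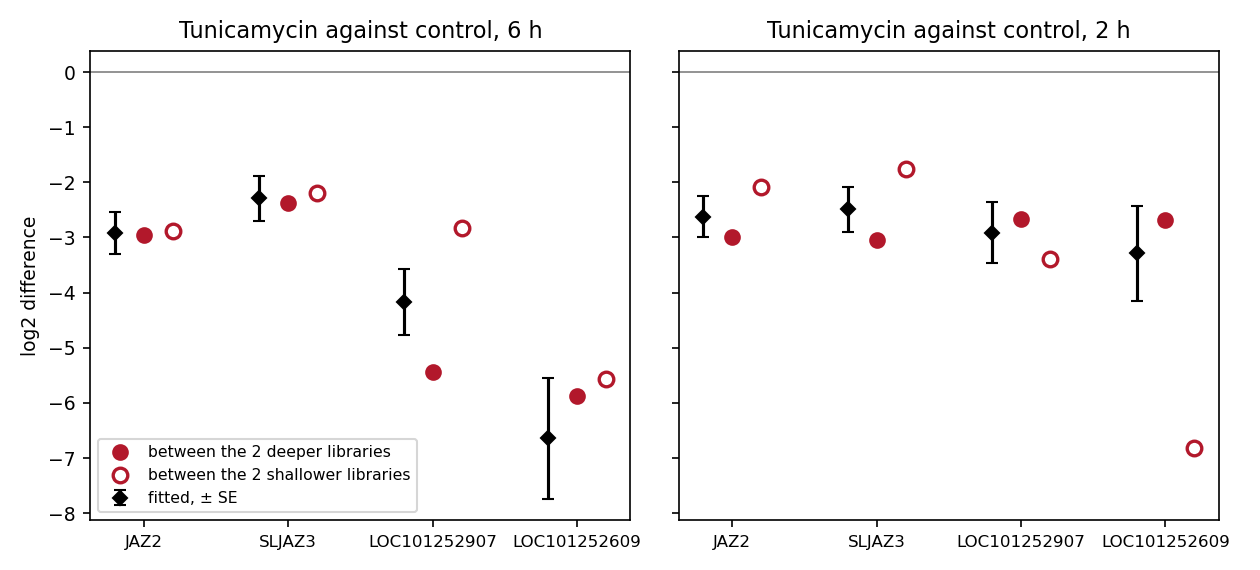
Log2 difference of tunicamycin from control leaves for the 4 genes at 6 h (left) and 2 h (right): fitted over all libraries with its SE (diamonds), between the 2 deeper libraries (filled circles) and between the 2 shallower libraries (open circles). All values lie under 0, from -1.75 for SLJAZ3 to -6.82 for LOC101252609, both between the shallower libraries at 2 h.

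A change with time, averaged over both arms, did not reuse the contrasts that chose the genes, but it used the same libraries. It is independent of those contrasts only where all group means are equally precise. For LOC101252609 they were not (SE of the change 1.11 in tunicamycin and 0.76 in control leaves). Fits with a library left out do not meet this condition either. The average of 6 h against 2 h over the tunicamycin and the control arm was negative for 4 of 4 genes, and 0 of the 4 passed edgeR's test at an adjusted p under 0.05. JAZ2 gave -1.02 ± 0.25 on the log2 scale (SE, adjusted p = 0.0624), SLJAZ3 -0.79 ± 0.28 (adjusted p = 0.213), LOC101252907 -1.31 ± 0.38 (adjusted p = 0.129) and LOC101252609 -2.20 ± 0.67 (adjusted p = 0.146). Of all transcripts, 1.42% were called in this comparison, 1.1% lower and 0.322% higher at 6 h. Among 18 alternatives, JAZ2 and LOC101252907 passed in 4 each, LOC101252609 in 2 and SLJAZ3 in 0. Without a filter on low counts JAZ2 (adjusted p = 0.0028), LOC101252907 (0.00106) and LOC101252609 (0.0133) passed, where 1623 of 40594 transcripts were called. In DESeq2 the same genes passed (0.00636, 0.037 and 0.0344), where 1256 of 34483 transcripts were called. JAZ2 also passed with a depth term (0.031) and without control 6 h replicate 2 (0.0425), and LOC101252907 in limma-voom (0.0334) and without tunicamycin 6 h replicate 2 (0.00581). Of the 21 tested Rubisco and chlorophyll-binding genes, 6 fell in the same comparison, and their part in the values of the repressors was not tested. For LOC101252609 the sign turned without tunicamycin 2 h replicate 1 (1.56, adjusted p = 0.85), which leaves 0 reads in that group.

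Both 6 h libraries lay below both 2 h libraries for 3 of the 4 genes in tunicamycin leaves, for 4 of 4 in control leaves and for 3 of 4 in each arm, where 19.3%, 16.1% and 6.56% of all transcripts did so. The exception was LOC101252609 in tunicamycin leaves. At 6 h against 2 h in tunicamycin leaves JAZ2 gave -1.17 ± 0.36, SLJAZ3 -0.69 ± 0.40 and LOC101252907 -1.94 ± 0.59 on the log2 scale (SE). In control leaves the same genes gave -0.88 ± 0.35, -0.90 ± 0.39 and -0.68 ± 0.50. LOC101252609 gave -3.87 ± 1.11 in tunicamycin and -0.53 ± 0.76 in control leaves. These values share libraries with the contrasts that chose the genes and carry no test. Harvest at 6 h differs from harvest at 2 h in time under treatment and in time of day, which cannot be told apart.

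The 4 genes shared 1 order of levels over the groups, lowest at 6 h of tunicamycin, then at 2 h of tunicamycin, in control leaves at 6 h and in control leaves at 2 h. For JAZ2, SLJAZ3 and LOC101252907 no neighbouring groups in this order overlapped. Among all transcripts 0.267% showed that order with no overlap. The genes were chosen for lower counts under tunicamycin, so part of the order came with the choice. Both tunicamycin libraries lay below both control libraries at both times in 4.56% of all transcripts, and only these could show the order. For LOC101252609 the tunicamycin groups at 6 h and 2 h overlapped, each with 1 library at 0. Its control libraries at 6 h (2.01 and 4.83 CPM) lay under those at 2 h (4.88 and 5.07 CPM), by little in the deeper library of each time.

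Ratios of reads between members in 1 library do not depend on any scaling between libraries. The ratio of JAZ2 to SLJAZ3 reads was 0.332 and 0.194 in tunicamycin leaves and 0.311 and 0.494 in control leaves at 6 h. At 2 h it was 0.396 and 0.313 in tunicamycin leaves and 0.396 and 0.382 in control leaves, so the ranges overlapped at both times. The ratio of LOC101252907 to JAZ2 reads was 0.0581 and 0.293 in tunicamycin leaves and 0.288 and 0.360 in control leaves at 6 h. The deeper tunicamycin library, at 0.0581, stood apart from the other 7, which ran from 0.167 to 0.418.

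Of the other 12 genes of the list, 3 had 0 reads in every library (LOC101255016, LOC101263620 and LOC112940698) and 9 could be tested. In edgeR 0 of the 9 passed at 6 h, at 2 h or with time, where 0.322%, 0.0464% and 1.42% of all transcripts passed in either direction. At an unadjusted p under 0.05 there were 2 of the 9 at 6 h, 4 at 2 h and 6 with time, beside 4.07%, 7.25% and 13.3% of all transcripts. Here and in the lists below a gene counts if any of its transcripts does, whereas the shares are of transcripts. With time, LOC101244360 and LOC101265858 counted only through variants with fewer reads (unadjusted p = 0.0473 and 0.0219 in edgeR). DESeq2 called 2, 2 and 1 of them at these comparisons, and limma-voom called 0. At 6 h, 3 of the 9 were below 0 (median 0.07, range -3.36 to 0.76), and at 2 h 7 of the 9 (median -0.67, range -3.19 to 0.45), against a median of 0.03 over all transcripts at each time.

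Closest to the 4 chosen genes were LOC101253212, a further TIFY 5A-like gene, and LOC101247936, a TIFY 10b-like gene. LOC101253212 had 0.196 and 0.137 CPM in tunicamycin leaves at 6 h, against 2.26 and 1.47 CPM in control leaves, and its log2 fold change of -3.36 ± 0.79 missed the threshold in edgeR (adjusted p = 0.124). At 2 h it had 0.396 and 0.965 CPM in tunicamycin leaves, against 2.85 and 7.60 CPM in control leaves (log2 -3.19 ± 0.79, adjusted p = 0.235). Its groups did not overlap at either time, and it rested on 22 tunicamycin reads against 231 control reads at 6 h. Both fitted values were further below 0 than those of JAZ2, with a wider SE.

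LOC101247936 had 65.8 and 61.5 CPM in tunicamycin leaves at 6 h, against 214 and 171 CPM in control leaves (log2 -1.60 ± 0.37, adjusted p = 0.116 in edgeR). At 2 h it had 96.1 and 95.8 CPM in tunicamycin leaves, against 236 and 359 CPM in control leaves (log2 -1.63 ± 0.37, adjusted p = 0.185 in edgeR). Its groups were apart at both times by a smaller factor than those of the 4 chosen genes. LOC101253212 and LOC101247936 passed at both times with no filter on low counts and in DESeq2, and limma-voom called neither. With no filter 597 of 40594 transcripts were called at 6 h and 679 at 2 h. DESeq2 called 366 and 300 of 34483, against 111 and 16 in the main fit.

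LOC100191114, described like SLJAZ3 as a jasmonate ZIM-domain protein 3, had groups that overlapped at both times. It had 137 and 139 CPM in tunicamycin leaves at 6 h, against 170 and 93.9 CPM in control leaves (log2 0.07 ± 0.39, adjusted p = 1 in edgeR). At 2 h it had 247 and 310 CPM in tunicamycin leaves, against 243 and 333 CPM in control leaves (log2 -0.05 ± 0.39). Over both arms it gave -1.07 ± 0.28 at 6 h against 2 h, with an adjusted p of 0.0846 in edgeR. It passed in DESeq2, with no filter on low counts and without control 6 h replicate 1.

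TIFY 6B (LOC101244360) lay on opposite sides of control at the 2 times. It had 15.6 and 16.8 CPM in tunicamycin leaves at 6 h, against 15 and 4.36 CPM in control leaves (log2 0.76 ± 0.49), and 8.83 and 16.4 CPM at 2 h, against 38.7 and 27.7 CPM (log2 -1.42 ± 0.50, adjusted p = 0.517 in edgeR). Of the others, LOC101244194 (TIFY 8) gave 0.06 ± 0.33 at 6 h and -0.67 ± 0.34 at 2 h. The TIFY 4B genes LOC101265858 and LOC101259854, whose Arabidopsis namesakes are PEAPOD regulators of leaf growth and not JAZ repressors, gave -0.25 ± 0.31 and 0.74 ± 0.46 at 6 h and -0.81 ± 0.32 and 0.33 ± 0.48 at 2 h. LOC101263193 (TIFY 10b-like) and LOC101257414 (TIFY 10A-like) had under 2 CPM in each library.

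**Figure D3:**
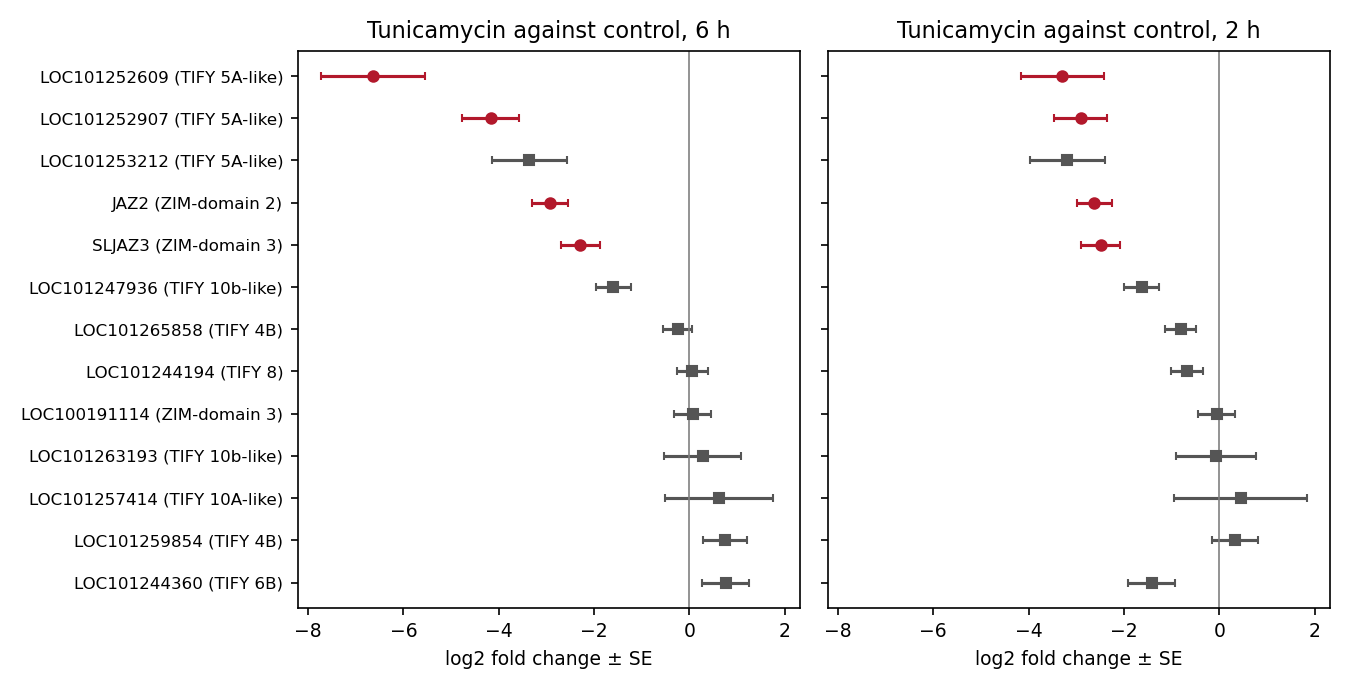
Fitted log2 fold change with its SE for the 13 tested JAZ and TIFY genes in tunicamycin against control leaves at 6 h (left) and 2 h (right), with circles for the 4 chosen genes and squares for the others. The chosen genes run from -2.29 to -6.64 at 6 h, while 7 of the other 9 lie between -0.25 and 0.76.

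As a share of all JAZ and TIFY reads, counted with 1 transcript for each gene, the 4 genes made up 9.25% and 11.6% in tunicamycin leaves and 29.0% and 36.6% in control leaves at 6 h. At 2 h they made up 12.6% and 11.3% in tunicamycin leaves and 28.6% and 36.5% in control leaves. LOC100191114 held 46.2% and 44.9% of these reads in tunicamycin leaves and 26.2% and 18.9% in control leaves at 6 h, and 56.4% and 59.8% against 30.1% and 27.4% at 2 h. Its own CPM overlapped between the groups at both times, as given above. Shares count reads and depend on transcript length.

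**Figure D4:**
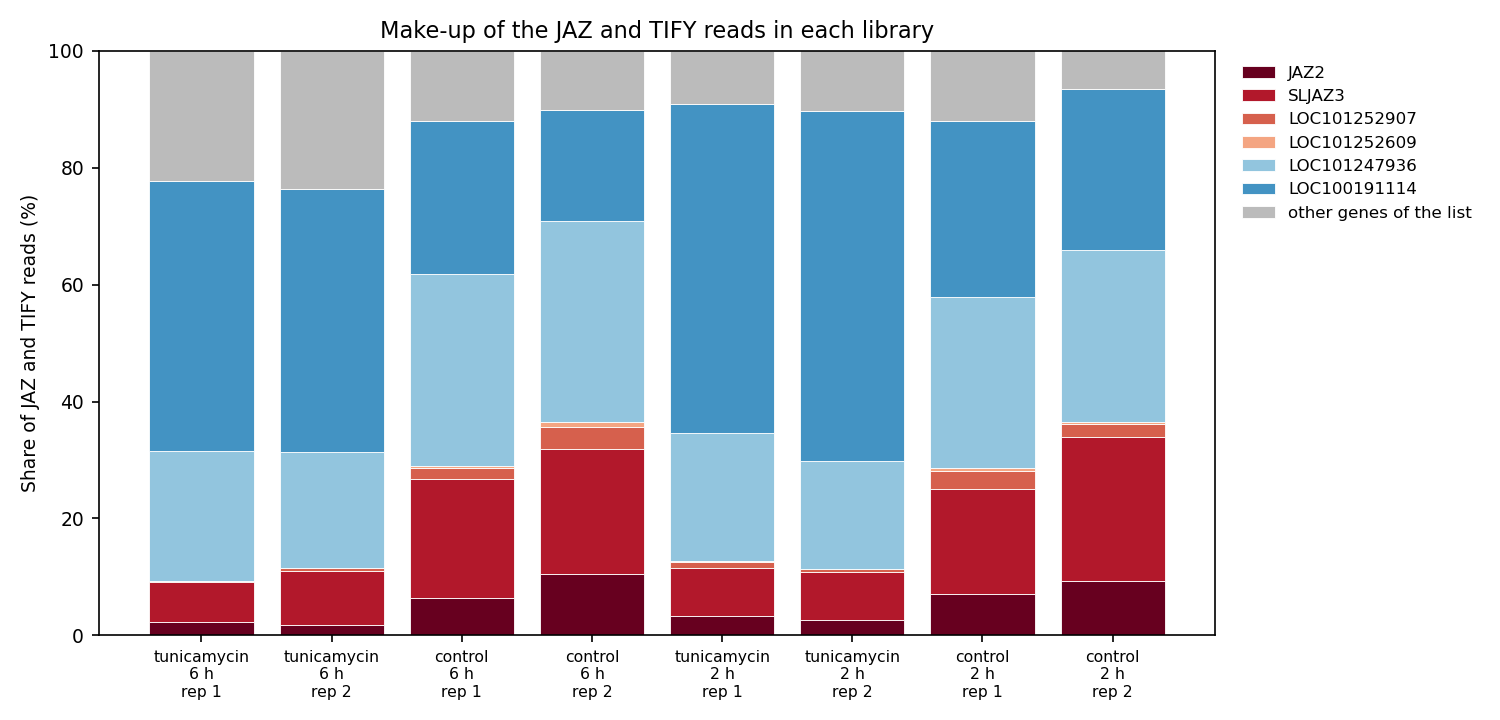
Share (%) of the JAZ and TIFY reads of each library that fell on each gene, as stacked bars of which the 4 lowest parts are the chosen genes. These parts reach 9.25% and 11.6% in tunicamycin and 29.0% and 36.6% in control leaves at 6 h.

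The TIFY 5A-like genes LOC101253212 and LOC101252907 are next to each other in the RefSeq gene table of assembly SLM_r2.1, and 1 gene, a long noncoding RNA, stands between LOC101252907 and LOC101252609. JAZ2 and SLJAZ3 lie apart from them. How the authors' counting treated reads that fit more than 1 of these related neighbours is given by none of the sources used here, so the split of reads among LOC101253212, LOC101252907 and LOC101252609 is uncertain. The ratio of LOC101252609 to LOC101252907 reads was not constant, at 0.100 and 0 in tunicamycin leaves against 0.169 and 0.256 in control leaves at 6 h, and 0.187 and 0 against 0.203 and 0.199 at 2 h.

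The genes of jasmonate synthesis, perception, turnover and response put the repressors in context. Of 37 tested genes of synthesis, 2 fell at 6 h and 2 at 2 h in edgeR, and none rose. Of all transcripts, 0.302% fell at 6 h and 0.0435% at 2 h. At an unadjusted p under 0.05 in edgeR there were 2 of the 37 at 6 h and 9 at 2 h, beside 4.07% and 7.25% of all transcripts. DESeq2 called 2 and 3 of them, and limma-voom 2 and 1. The enzyme gene aos (allene oxide synthase, the first enzyme specific to the jasmonate branch) had 2.19 and 2.46 CPM in tunicamycin leaves at 6 h, against 28 and 17.5 CPM in control leaves (log2 -3.30 ± 0.41, adjusted p = 0.00992 in edgeR). It also fell at 2 h, to 1.67 and 3.22 CPM in tunicamycin leaves, against 38.2 and 58.4 CPM in control leaves (log2 -4.44 ± 0.45, adjusted p = 0.00241 in edgeR).

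The lipoxygenase gene loxD, whose product feeds that branch in the chloroplast, had 26.3 and 32.6 CPM in tunicamycin leaves at 6 h, against 193 and 136 CPM in control leaves (log2 -2.48 ± 0.39, adjusted p = 0.015 in edgeR). At 2 h it gave -2.18 ± 0.39 (adjusted p = 0.0723). AOC (allene oxide cyclase, the next enzyme) fell at 2 h, to 10.9 and 10.6 CPM in tunicamycin leaves, against 60.2 and 80.8 CPM in control leaves (log2 -2.71 ± 0.44, adjusted p = 0.0423 in edgeR). This call was lost in 9 of 19 alternatives, namely RLE scaling, a minimum count of 50, limma-voom, no robust fit, the replicate block, and leaving out any of the libraries of 2 h. The AOC libraries overlapped at 6 h. The calls of aos, loxD and the turnover gene LOC101263302 at 6 h were lost without tunicamycin 6 h replicate 1 and in a fit of the 6 h libraries alone, and that of loxD also without tunicamycin 6 h replicate 2. At 2 h the call of aos was lost when control 2 h replicate 2 or tunicamycin 2 h replicate 1 was left out. Over the list the median log2 was 0.04 at 6 h and -0.20 at 2 h, and 35 of the 37 did not pass at 6 h and 35 at 2 h.

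Of 21 tested genes of perception and signalling, 0 passed in edgeR at 6 h (median log2 -0.13) or at 2 h (median -0.17), with 1 and 4 at an unadjusted p under 0.05 (4.07% and 7.25% of all transcripts) and 0 in DESeq2 and limma-voom. Coi1, the jasmonate receptor, gave -0.26 ± 0.41 at 6 h and 0.24 ± 0.41 at 2 h, and MYC2, the transcription factor that JAZ proteins hold inactive, gave -0.57 ± 0.38 and -0.92 ± 0.38, both genes being chosen here for their role after their values were seen. The lowest p belonged to LOC101247327 (bHLH13-like, of a group of factors that counter MYC2 in Arabidopsis), with 14.2 and 16.8 CPM in tunicamycin leaves, against 36.3 and 22.7 CPM in control leaves at 6 h (log2 -0.93 ± 0.35, adjusted p = 0.754), and -1.43 ± 0.36 (adjusted p = 0.244) at 2 h. LOC101250003 (TOPLESS-related protein 4) gave -0.62 ± 0.32 at 6 h, and LOC101266721 (described as ninja-family protein AFP3) gave -1.09 ± 0.42 at 2 h.

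Among 9 tested genes of turnover, 1 fell at 6 h in edgeR, where 0.302% of all transcripts did, and 0 passed at 2 h. At an unadjusted p under 0.05 in edgeR there were 5 of the 9 at 6 h and 6 at 2 h, beside 4.07% and 7.25% of all transcripts. DESeq2 called 3 and 2 of them, and limma-voom 1 and 0. LOC101263302 is described as CYP94B3-like, after the Arabidopsis enzyme that hydroxylates jasmonoyl-isoleucine and so removes the active hormone. It had 0.049 and 0 CPM in tunicamycin leaves at 6 h, against 4.53 and 3.16 CPM in control leaves (log2 -6.48 ± 0.88, adjusted p = 0.0106 in edgeR), or 5 reads against 490. At 2 h it had 0.264 and 0.965 CPM in tunicamycin leaves, against 6.51 and 12.8 CPM in control leaves (log2 -4.38 ± 0.76, adjusted p = 0.0723). The TIFY 5A-like LOC101252609 was as close to 0 at 6 h, with 4 reads against 651.

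A second CYP94B3-like gene, LOC101263598, had 0.0979 and 0 CPM in tunicamycin leaves at 6 h, against 2.77 and 3.03 CPM in control leaves (log2 -5.24 ± 1.06, adjusted p = 0.0557 in edgeR). At 2 h its log2 fold change was -4.88 ± 1.08 (adjusted p = 0.168). LOC101262529, described as CYP94C1, which oxidises the hormone further in Arabidopsis, was the 1 gene of these jasmonate lists that edgeR called with time, at -1.76 ± 0.35 over both arms (adjusted p = 0.0217, chosen after its values were seen). DESeq2 called 5 such genes, limma-voom 2 and edgeR with no filter on low counts 10, LOC101262529 among them each time. Its call was lost when control 2 h replicate 2, tunicamycin 2 h replicate 1 or tunicamycin 6 h replicate 1 was left out. Its tunicamycin and control values were 15.4 and 21.0 against 25.9 and 53.4 CPM at 6 h.

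Wound and defence response genes, mostly protease inhibitors, polyphenol oxidases and acid phosphatases, numbered 47 tested, of which 0 passed in edgeR at 6 h (median log2 -0.03) or at 2 h (median 0.47). At an unadjusted p under 0.05 there were 4 at 6 h and 10 at 2 h, beside 4.07% and 7.25% of all transcripts, and DESeq2 called 0 and 2. LOC101253467 (acid phosphatase 1-like) had 0.431 and 0.410 CPM in tunicamycin leaves at 6 h, against 2.72 and 1.68 CPM in control leaves (log2 -2.36 ± 0.72, adjusted p = 0.388). APS-AA2 (acid phosphatase 1-like) gave 0.64 ± 0.30 at 6 h, and LOC101259064 (polyphenol oxidase F) gave -2.18 ± 0.57 at 2 h (adjusted p = 0.271).

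**Figure D5:**
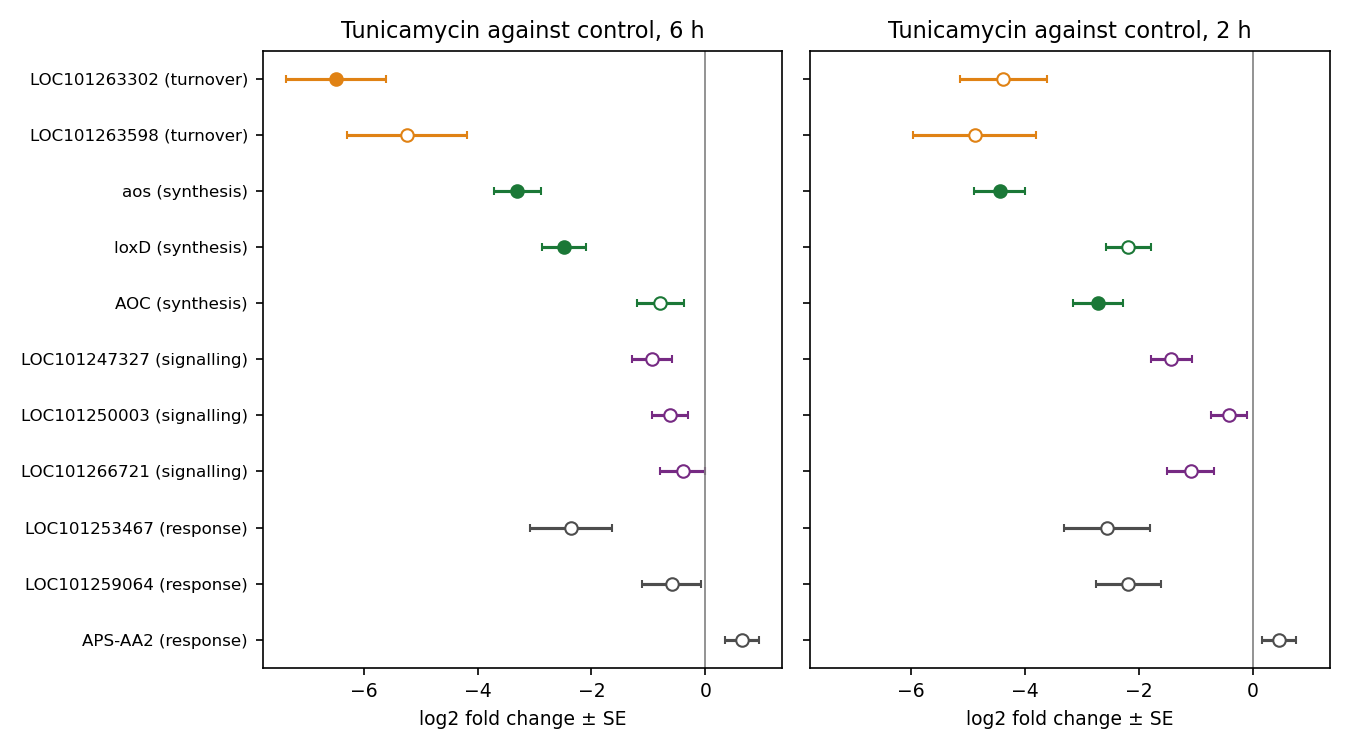
Fitted log2 fold change with its SE for the named genes of jasmonate synthesis, signalling, turnover and response in tunicamycin against control leaves at 6 h (left) and 2 h (right), with filled symbols for an adjusted p under 0.05. The filled symbols are aos, loxD and LOC101263302 at 6 h (-3.30, -2.48 and -6.48) and aos and AOC at 2 h (-4.44 and -2.71).

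Genes with the profile most like each repressor were looked up among 15430 genes that averaged 1 or more on the log2 CPM scale, by Pearson's r of log2 CPM over the 8 libraries. The repressors themselves were kept at any level. Genes under that level, among them LOC101253212 and LOC101263302, were not compared, so closer profiles among them would be missed. The libraries share their depth and scaling, and each profile is largely a contrast of treatment, so r is a description only. For JAZ2 the closest were Wfi1 (a whitefly-induced NADPH oxidase, r = 0.996), LOC101251286 (teosinte glume architecture 1, r = 0.993), LOC101252188 (phosphatidylinositol transfer protein 1, r = 0.989), LOC101247936 (TIFY 10b-like, r = 0.986) and LOC101266317 (a leucine-rich repeat receptor kinase, r = 0.985). Wfi1 had 76.4 and 66.2 CPM in tunicamycin leaves at 6 h, against 234 and 257 CPM in control leaves, and 111 and 117 CPM at 2 h, against 240 and 380 CPM.

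For SLJAZ3 the closest were LOC101247995 (metacaspase-1-like, r = 0.996), LOC101247936 (r = 0.989), the noncoding LOC101246917 (r = 0.987), LOC101252120 (acyl-CoA thioesterase 2, r = 0.986) and loxD (r = 0.985). LOC101247936 thus stood in the first 5 of both JAZ2 and SLJAZ3, whose own r was 0.975. LOC101252907 was closest to the noncoding LOC101244260 (r = 0.982), LOC101248245 (chaperone protein dnaJ 10, r = 0.975) and LOC101248759 (SAR DEFICIENT 1, a regulator of salicylate synthesis, r = 0.972), then to LOC101266906 (deubiquitinase DESI2) and LOC101253548 (uncharacterized), each at 0.967. LOC101252609, with its few reads, had lower values, from 0.971 for LOC101256867 (tyrosine-protein phosphatase DSP3) to 0.962 for LOC101263635 (NAD(H) kinase 1), with LOC112940897 (noncoding), LOC101267733 (receptor-like kinase PCRK1-like) and LOC101268109 (ERF025-like) between. Within the 4 deeper or the 4 shallower libraries the first 5 of each gene shared 0 or 1 gene with these.

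Of the 13 tested JAZ and TIFY genes, the 4 called at 6 h became 2 when control 2 h replicate 2 was left out, also 2 when tunicamycin 6 h replicate 2 was, and 0 when tunicamycin 6 h replicate 1 was. They also became 0 in a fit of the 6 h libraries alone. At 2 h the 1 call ended when control 2 h replicate 2 or either tunicamycin 2 h library was left out. There were 3 calls at 2 h without control 6 h replicate 2 or either tunicamycin 6 h library, and 5 without control 6 h replicate 1. The log2 fold changes of the 4 chosen genes stayed below 0 in each of the 19 alternatives, at 6 h and at 2 h. The genes were chosen for low counts under tunicamycin and their groups did not overlap, so this sign could hardly turn and is no check. The fitted value of LOC101252609 moved most, to -10.03 at 6 h without tunicamycin 6 h replicate 1 and to -10.87 at 2 h without tunicamycin 2 h replicate 1, each of which leaves that group with 0 reads of it.

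Beside these differences, the Rubisco and chlorophyll-binding genes summed to 21800 and 46400 CPM in tunicamycin leaves and 28100 and 36800 CPM in control leaves at 6 h, and to 35200 and 41200 CPM in tunicamycin leaves and 32100 and 28400 CPM in control leaves at 2 h. The 12 vascular genes (xylem, phloem) summed to 126 and 99.4 CPM in tunicamycin leaves and 89.5 and 70.8 CPM in control leaves at 2 h, and overlapped at 6 h. The share of ribosomal RNA was 2.53% in tunicamycin 6 h replicate 2 and lay between 0.0745% and 0.647% in the other libraries. The part of these in the JAZ and TIFY values was not tested.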

How the data were processed

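The authors deposited raw read counts, as whole numbers, for each RefSeq transcript and library. The submitters' processing notes list Trimmomatic 0.40, a read trimmer. The sources used here give no aligner, counting program, strand setting, build or annotation. Per the labels' protocols the library kit was directional. From the deposited counts, transcripts were kept by filterByExpr (minimum count 10, minimum total count 15), which left 34483 of 45845, and all 4 chosen genes passed. Libraries were scaled by TMM and fitted in edgeR 4.0.16 (R 4.3.3) with 1 mean per group over all 8 libraries and a robust quasi-likelihood test, two-sided, with Benjamini-Hochberg adjustment over all transcripts and a threshold of 0.05. An SE is the absolute log2 fold change divided by the square root of F. Alternatives were RLE and upper-quartile scaling, other filters, DESeq2 1.42.0, limma-voom (limma 3.58.1), 1 transcript for each gene, no robust fit, a replicate block, a depth term, only 1 time, and each library left out in turn.

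The procedure was tested on simulated data whose spread between libraries was the one estimated here, which leaves that estimate unchecked. Genes and lists were matched by symbol and description, and the 16 JAZ and TIFY symbols were all found in the RefSeq gene table, which served for names and neighbours only. The members and lists were chosen with earlier results of these data known. The named genes were the members, their relatives, the 2 genes with the smallest adjusted p (then p) of each jasmonate list at each time, and the 5 genes most like each member. The epidermal list gave 0 calls at 6 h and 2 h in edgeR (2 and 5 genes at an unadjusted p under 0.05, 0 and 1 in DESeq2). The authors' comparison tables were not used here.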

Additional observations from a re-analysis of the deposited data

Results flagged for a closer look

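LOC101244360 (TIFY 6B) was the 1 tested JAZ or TIFY gene whose tunicamycin libraries lay above both control libraries at 6 h and below both at 2 h. The tunicamycin effect at 6 h minus that at 2 h came to 2.18 ± 0.70 on the log2 scale (SE), with an adjusted p of 1 in edgeR, so the difference did not pass. It had 16.2 ± 0.858 CPM in tunicamycin and 9.68 ± 7.52 CPM in control leaves at 6 h, and 12.6 ± 5.35 CPM and 33.2 ± 7.72 CPM at 2 h (SD, n = 2 each). Within the deeper libraries the effect was 1.83 at 6 h and -1.65 at 2 h, and within the shallower 0.16 and -1.23. With 2 libraries a group, single libraries could not be checked for standing apart. In the jasmonate lists LOC543883 (hydroxyproline-rich systemin), chosen after its values were seen, lay on the same sides, with 1.44 and 2.32 CPM in tunicamycin leaves at 6 h, against 0.503 and 0.948 CPM in control leaves, and 0.0879 and 0 CPM at 2 h, against 1.22 and 0.718 CPM. The effect at 6 h minus that at 2 h was 4.97 ± 1.46 (SE), with an adjusted p of 1 in edgeR. LOC101264068 (1.32) and LOC101251682 (0.77) of these lists lay on the same sides too. The share of all transcripts that lay on these sides was not computed, so the pattern is a description only.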

How the results depend on the processing

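Counts of called transcripts were 111 at 6 h, 16 at 2 h and 490 with time, and counts of JAZ and TIFY genes 4, 1 and 0. With no low-count filter they became 597, 679 and 1623 transcripts, with 7 of these genes at 2 h and 4 with time. DESeq2 gave 366, 300 and 1256 transcripts, with 6 of the genes at 2 h and 4 with time. Limma-voom gave 1 transcript and 0 genes at 2 h and 1 gene with time, a depth term 53 transcripts and 2 genes at 2 h and 1 gene with time, and a minimum count of 50 gave 9 transcripts at 2 h. With 1 transcript for each gene, 54 were called at 6 h, and 2 of the genes at 2 h, as with upper-quartile scaling. With only the libraries of 1 time, 0 transcripts and 0 genes were called at 6 h, and 70 and 3 at 2 h. With each library left out, counts ran from 0 to 194 transcripts at 6 h, 0 to 183 at 2 h and 211 to 778 with time, and from 0 to 4, 0 to 5 and 0 to 2 genes. These fits assume that the lone library of a group varies like the others.

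The replicate block gave 72 transcripts at 6 h, and 3 with 0 of the genes at 2 h. Deviations of same-numbered libraries correlated between -0.177 and 0.167. Replicate 1 was the deeper library in tunicamycin and the shallower in control groups. These values therefore cannot decide whether the numbers pair the libraries. With time, LOC101252609 ran from -3.93 to 1.56 with each library left out, the last without tunicamycin 2 h replicate 1. The cause of these shifts was not tested. LOC101252609 had the fewest reads of the chosen genes, with 0 in both shallower tunicamycin libraries. The shallower control libraries held 24 at 2 h and 40 at 6 h.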
